A study of Homo sapiens with 51 samples.

Results

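LCN2 and 9 other genes for secreted inflammatory proteins were followed across 17 groups of RNA libraries made from established human lines of pancreatic ductal adenocarcinoma. The 10 genes, of 25421 in the table, were CXCL1, CXCL2, CXCL3, CXCL5, CXCL8, CCL20, IL1B, SAA1, C3 and LCN2, taken by their symbols. LCN2 was chosen for its own reading, since it was higher with OVOL2 than with mCherry in the line PK45H, and its values in the OVOL2 contrasts are therefore given as a description with no test. The other 9 were listed as secreted genes known to be controlled by NF-kB, to ask whether they follow LCN2.

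The lines KP4, PANC1 and PK45H were transduced with lentivirus carrying the open reading frame of OVOL2, a zinc-finger transcription factor that keeps cells epithelial, or of mCherry, a fluorescent protein used as negative control. Each virus was given alone or with another that carries M2rtTA, the doxycycline-dependent activator of inducible promoters, at a multiplicity of infection of 2 with 8 µg/ml polybrene, in triplicate. From the following day the medium held 2.5 µg/ml puromycin and 0.6 µg/ml doxycycline, and RNA was collected after 6 days in all. Cells of KP4, PANC1, PK45H, HPAFII and PATU8988S that had no virus completed the set of 51 libraries, with 3 in each group. Whether the untreated cells received either drug is not stated in the labels, and each line is a single line, so a difference between lines is a difference between these cultures. The libraries were made by PLATE-seq, in which cDNA is barcoded well by well and pooled, from 100 ng of RNA.

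NF-kB is a family of dimeric transcription factors that inhibitors such as NFKBIA hold in the cytoplasm until a kinase complex, whose regulatory subunit is IKBKG, releases them. In epithelial cells its active form raises chemokines that attract neutrophils, acute-phase proteins, complement components, and its own inhibitors as feedback. LCN2 encodes lipocalin-2, a small secreted protein that binds bacterial siderophores and so withholds iron, and it is made by neutrophils and by stressed or inflamed epithelium, including that of the pancreas.

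The 250 bases before the transcription start were read from the RefSeq promoter table of GRCh38.p14 for 8 of the 10 genes, since SAA1 and C3 had no entry there. Shown here, 5′ to 3′ on the strand of the gene, are LCN2, by which the genes were chosen, CXCL1 and CXCL3, which changed in KP4, and CXCL5, which changed in PK45H. Capitals mark matches to the NF-kB consensus on either strand. The LCN2 window is chr9:128149203-128149452 on the + strand, that of CXCL1 chr4:73869143-73869392 (+), that of CXCL3 chr4:74038690-74038939 (-) and that of CXCL5 chr4:73998678-73998927 (-). The RefSeq starts of LCN2, CXCL3 and CXCL5 lie inside their GENCODE gene models, so these windows overlap those models in whole or in part.
LCN2: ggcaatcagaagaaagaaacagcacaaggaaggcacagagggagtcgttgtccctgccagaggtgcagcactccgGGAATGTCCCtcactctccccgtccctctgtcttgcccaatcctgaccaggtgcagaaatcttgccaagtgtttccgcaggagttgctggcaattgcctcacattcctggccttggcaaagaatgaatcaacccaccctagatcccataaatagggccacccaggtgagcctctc
CXCL1: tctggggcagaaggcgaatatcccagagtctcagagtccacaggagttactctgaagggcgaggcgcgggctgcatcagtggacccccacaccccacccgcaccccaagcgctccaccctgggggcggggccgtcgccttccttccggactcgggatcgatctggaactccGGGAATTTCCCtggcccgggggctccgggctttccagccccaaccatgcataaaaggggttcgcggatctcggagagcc
CXCL3: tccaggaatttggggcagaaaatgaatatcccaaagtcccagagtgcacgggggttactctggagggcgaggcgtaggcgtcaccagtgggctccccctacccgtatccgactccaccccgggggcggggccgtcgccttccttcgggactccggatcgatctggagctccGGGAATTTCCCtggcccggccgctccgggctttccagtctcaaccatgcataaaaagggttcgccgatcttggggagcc
CXCL5: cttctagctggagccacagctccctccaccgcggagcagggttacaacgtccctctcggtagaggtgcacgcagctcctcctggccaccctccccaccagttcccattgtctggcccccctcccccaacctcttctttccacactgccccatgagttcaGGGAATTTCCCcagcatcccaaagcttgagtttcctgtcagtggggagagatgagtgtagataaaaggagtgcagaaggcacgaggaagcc
The NF-kB consensus was matched in 6 of the 8 windows, those of LCN2, CXCL1, CXCL2, CXCL3, CXCL5 and CCL20, and in 5.21% of the 35116 promoters of the table. The match of LCN2 lay at bases -175 to -166 from the start, and that of CCL20 at -79 to -70. In CXCL1, CXCL2, CXCL3 and CXCL5 the same 11 letters held overlapping matches on both strands. An AP-1 motif (TGANTCA, either strand) was matched in the windows of LCN2, at -52 to -46, and CXCL8, at -137 to -131, and in 6.57% of all promoters. The OVOL core CCGTTA, searched on both strands, was in 0 of the 8 windows and in 2.45% of all promoters. These are matches of letters in these windows and say nothing of binding. The 5 CXCL genes lie together on chromosome 4, from 73740506 to 74099293 in the GENCODE v29 annotation of GRCh38. LCN2 is at chr9:128149071-128153455, C3 at chr19:6677704-6730562, SAA1 at chr11:18266174-18269977, IL1B at chr2:112829751-112836903 and CCL20 at chr2:227805739-227817564.

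Library totals ran from 1165399 to 7490556 counts, the lowest being HPAFII untreated replicate 2, and the counts limit what can be seen of the genes at a few counts per library. A level is given in CPM, the count relative to the library's total after TMM scaling over all 51 libraries, for each replicate or as mean ± SD over the 3. A change is a log2 ratio between groups from the fit of edgeR. Its standard error (SE) was worked out as the size of the change over the square root of the test's F statistic, and is approximate at low counts. The quasi-likelihood test of edgeR called a gene when its p, adjusted over all genes tested in the fit, was under 0.05. A gene was not tested where edgeR's expression filter removed it. The transduced gene OVOL2 held 13, 62 and 9 counts with OVOL2 plus M2rtTA in KP4 against 2, 0 and 6 with mCherry plus M2rtTA, and was higher by 3.08 (SE 0.92, adjusted p = 0.0272), and in PK45H held 23, 18 and 18 counts against 7, 3 and 12, higher by 1.98 (SE 0.48, adjusted p = 0.0135). In PANC1 with M2rtTA the change of 1.40 was not called (adjusted p = 0.244), and without M2rtTA the changes were -0.02, -0.44 and 0.12 in KP4, PANC1 and PK45H, so OVOL2 counts do not check those labels. The lines carried ductal epithelial markers at a summed level of 646 to 14398 CPM over 8 genes. The summed level of 12 leukocyte markers was 2.26 to 14.5 CPM. Of these, CSF3R was above 0 in all but 1 library, PTPRC, the general leukocyte marker CD45, was at 0 in 6, ITGAM in 8 and CD68 in 9, while ELANE was at 0 in 45 and MPO in 49 of 51 libraries. The 9 fibroblast and endothelial markers summed to 14.5 to 76.1 CPM and the 4 acinar markers to at most 7.60 CPM.

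Among untreated lines, LCN2 was highest in HPAFII and PATU8988S. Its level in HPAFII was 163, 61.7 and 124 CPM in replicates 1, 2 and 3, and in PATU8988S 34.6, 30.7 and 36.6 CPM. It was 12.4, 9.89 and 7.60 CPM in PK45H, 3.12, 3.84 and 6.25 CPM in PANC1, and 3.64, 2.78 and 3.39 CPM in KP4. The lines overlapped nowhere in this order except PANC1 and KP4. LCN2 was higher in HPAFII than in PATU8988S by 1.82 (SE 0.30, adjusted p = 0.000682, edgeR), in PATU8988S than in PK45H by 1.80 (SE 0.31, adjusted p = 0.000481), and in PK45H than in PANC1 by 1.14 (SE 0.34, adjusted p = 0.0230). PANC1 and KP4 did not differ beyond their spread (0.46, SE 0.37, adjusted p = 0.429). HPAFII replicate 2, the shallowest library, held 82 counts of LCN2, and the mean of HPAFII was 116 CPM with it and 143 CPM without it.

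The genes C3, SAA1 and IL1B had another order, with PK45H on top. C3, the central component of complement, stood at 41.5 ± 2.52 CPM in PK45H and 14.4 CPM in HPAFII, next in order, a difference of 1.44 (SE 0.21, adjusted p = 0.000169, edgeR). SAA1, an acute-phase protein carried on lipoproteins, stood at 30.4 ± 1.36 CPM in PK45H and 3.33 CPM in HPAFII (2.98, SE 0.54, adjusted p = 0.000913). IL1B, the precursor of the cytokine interleukin-1 beta, stood at 34.9 ± 3.14 CPM in PK45H and 10.1 CPM in HPAFII (1.71, SE 0.40, adjusted p = 0.00605). For each of these, every PK45H library was above every library of the other 4 lines, and no other neighbours in the order differed beyond their spread. The lines below HPAFII were at 8.17 to 11.8 CPM for C3, 1.49 to 2.09 CPM for SAA1 and 6.04 to 6.86 CPM for IL1B. All 9 genes tested, of the 10, differed between the 5 untreated lines, where 57.8% of the 13785 genes tested did. CXCL5 was not tested there.

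The neutrophil-attracting chemokines were at a few CPM in every untreated line. CXCL1, a ligand of the receptor CXCR2, ran from 7.98 CPM in PATU8988S through 4.86 in PANC1, 3.51 in KP4 and 1.92 in HPAFII to 1.03 in PK45H. CXCL8, which binds CXCR1 and CXCR2, was at 4.12 CPM in PATU8988S and from 0.153 to 1.44 CPM in the other lines. CXCL3 ran from 4.26 CPM in PATU8988S to 0.645 CPM in PK45H. CXCL2 ran from 3.63 CPM in HPAFII to 0.319 CPM in PANC1, CCL20 from 3.19 CPM in HPAFII to 0.359 CPM in PANC1, and CXCL5 from 3.82 CPM in HPAFII through 2.05 CPM in PK45H to 0.241 CPM in PATU8988S. CXCL5 was not tested between untreated lines. PK45H, the highest line for C3, SAA1 and IL1B, was the lowest for CXCL1, CXCL3 and CXCL8. For CXCL1, CXCL2, CXCL3, CXCL8 and CCL20, however, no pair of neighbours in the order differed beyond its spread (adjusted p from 0.0635 to 0.996), while the ends of the order of CXCL1, PATU8988S and PK45H, did (2.92, SE 0.45, adjusted p = 0.000196, edgeR). Between those lines 8 of the 9 genes tested were called, 5 higher and 3 lower in PATU8988S, against 28.3% of 13785 genes. CXCL1 was thus not the only chemokine that differed between them.

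**Figure D1:**
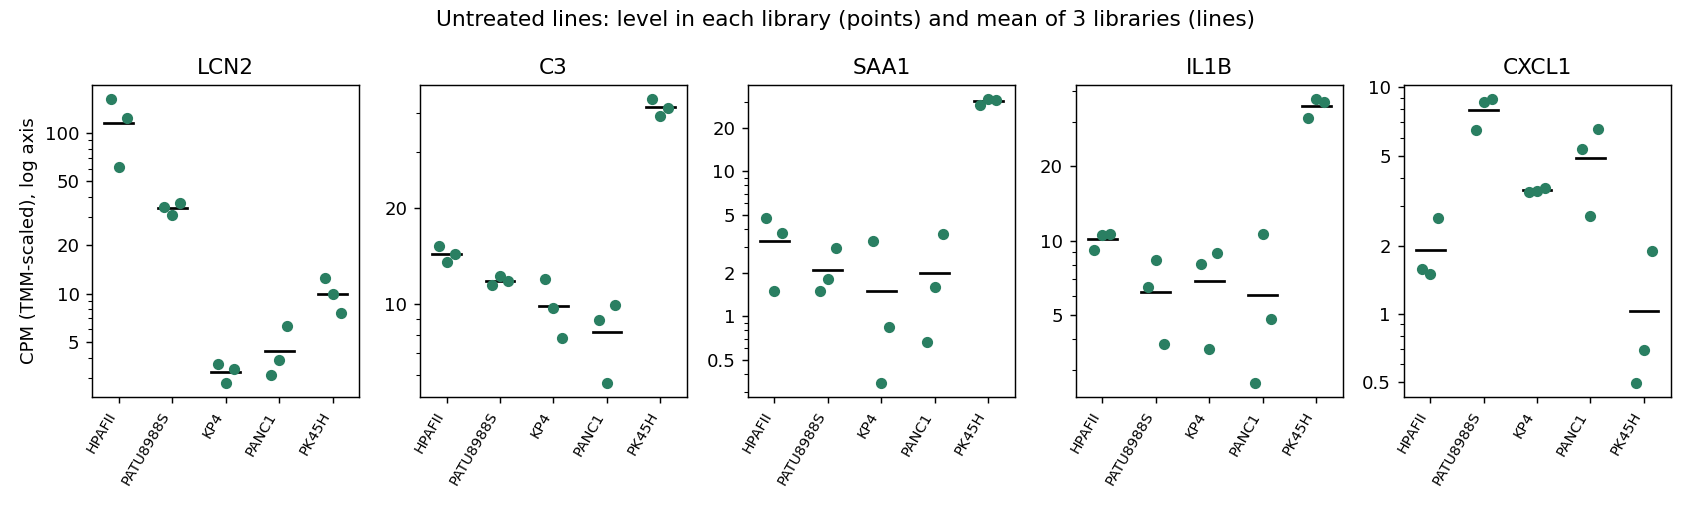
Level of LCN2, C3, SAA1, IL1B and CXCL1 in each of the 15 untreated libraries (points) and the mean of the 3 libraries of a line (lines), in CPM on a log axis that differs between panels. LCN2 was highest in HPAFII (mean 116 CPM), while C3 (41.5 CPM), SAA1 (30.4 CPM) and IL1B (34.9 CPM) were highest in PK45H.

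Neither the mCherry virus nor the addition of M2rtTA gave a call among those of the 10 genes that could be tested. In mCherry against untreated libraries, 0 of 9 genes tested in KP4, 0 of 5 in PANC1 and 0 of 5 in PK45H were called by edgeR, and 0 had an unadjusted p under 0.05. Of all genes tested, 966 of 13662, 1358 of 13218 and 1084 of 13583 had one. DESeq2 also called 0 in each line. Over all genes, 0.0%, 0.598% and 0.00736% were called. LCN2 changed by -0.04 (SE 0.38) in KP4, -6.9e-05 (SE 0.31) in PANC1 and 0.08 (SE 0.18) in PK45H. The addition of M2rtTA to mCherry gave 0 calls in each line as well, by edgeR and by DESeq2, with 0.0%, 0.0% and 0.0294% of all genes called. In that contrast, 1 gene had an unadjusted p under 0.05, CXCL1 in KP4, where 919 of 13662 genes had one. CXCL1 was at 3.04 CPM with mCherry and 1.05 CPM with mCherry plus M2rtTA (-1.45, SE 0.48, adjusted p = 0.622, edgeR).

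In PK45H the genes did not move as a group with OVOL2: C3 rose, SAA1 and CXCL5 fell, IL1B was not called, and the other chemokines were too low to test. LCN2, for which no test is given, was at 10.8, 10.3 and 9.37 CPM with mCherry and 89.0, 89.5 and 88.3 CPM with OVOL2. When M2rtTA was added, it was at 11.4, 9.93 and 10.3 CPM with mCherry and 221, 171 and 164 CPM with OVOL2. All 6 OVOL2 libraries were thus above all mCherry and untreated libraries of the line, and those with M2rtTA above those without. In bulk RNA, more cells of a kind and more RNA per cell cannot be told apart. The log2 change was 3.06 (SE 0.18) without and 4.19 (SE 0.19) with M2rtTA. All 3 libraries with OVOL2 plus M2rtTA were above the highest untreated HPAFII library. In KP4 LCN2 changed by 0.52 (SE 0.37) without M2rtTA, or by 1.13 without mCherry replicate 3, and by 0.65 (SE 0.36) with M2rtTA. In PANC1 it changed by 0.86 (SE 0.31) and -0.28 (SE 0.32). No library of those lines passed 9.62 CPM.

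C3 followed LCN2 in direction in PK45H. With mCherry its level was 39.6, 47.6 and 44.1 CPM, and with OVOL2 69.5, 81.6 and 77.4 CPM. In the M2rtTA arm it was 41.5, 34.7 and 42.1 CPM with mCherry and 146, 126 and 115 CPM with OVOL2. The OVOL2 libraries lay above all mCherry libraries, without overlap, and those with M2rtTA were the highest. C3 rose by 0.73 without M2rtTA (SE 0.14, adjusted p = 0.00467, edgeR) and by 1.77 with it (SE 0.14, adjusted p = 3.7e-06). Of the 9 genes other than LCN2, 4 were tested in PK45H, and C3 was the 1 called higher in each arm. Of 13583 genes, 8.39% were called without M2rtTA, 3.58% higher, and 15.9% with it, 7.45% higher. In one fit of all 51 libraries, the C3 call without M2rtTA was lost (0.76, adjusted p = 0.0887).

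SAA1 went the other way. Its level was 25.2, 22.9 and 26.5 CPM with mCherry and 3.13, 6.05 and 7.78 CPM with OVOL2. In the M2rtTA arm it was 33.6, 35.4 and 28.0 CPM with mCherry and 16.8, 14.0 and 9.72 CPM with OVOL2. Every OVOL2 library was below every mCherry and untreated library, and none overlapped. SAA1 fell by 2.19 without M2rtTA (SE 0.26, adjusted p = 1.2e-04, edgeR) and by 1.20 with it (SE 0.24, adjusted p = 0.00378). Of the 31-base words in SAA1 transcripts, 53.2% also occur in those of the neighbouring SAA2 and the SAA2-SAA4 readthrough, so counts of these genes may be split between them. The mean of SAA2 went the other way, from 1.46 CPM with mCherry to 3.50 CPM with OVOL2, and from 2.85 to 4.90 CPM with M2rtTA. Its groups overlapped in both arms. With SAA1 and SAA2 counts summed, an alternative chosen after seeing the data, the sum fell by 1.58 (SE 0.22, adjusted p = 0.000492) and by 0.88 (SE 0.21, adjusted p = 0.0125).

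CXCL5, a further CXCR2 ligand, was low in PK45H and lower with OVOL2. The mCherry libraries held 14, 7 and 7 counts and the OVOL2 libraries 2, 4 and 1. With M2rtTA the mCherry libraries held 7, 11 and 19 counts, and all 3 OVOL2 libraries held 0. CXCL5 fell by 2.45 without M2rtTA (SE 0.58, adjusted p = 0.0221, edgeR). In the M2rtTA arm CXCL5 was at least 8.74-fold lower if the mCherry level is taken as measured and 3 counts as the most that 0 counts allow over the OVOL2 group (adjusted p = 0.00148, edgeR). This covers the counting error of the OVOL2 group only, not the error or spread of the mCherry libraries. SAA1 and CXCL5 were the 2 genes called lower in each arm, where 4.81% of all genes were called lower without and 8.4% with M2rtTA. The call without M2rtTA was lost in 4 of 6 fits that left out 1 library, those without mCherry replicate 1 (-2.16, adjusted p = 0.0910) or 2 (-2.40, 0.0563) and without OVOL2 replicate 1 (-2.48, 0.0666) or 3 (-2.13, 0.0876), and in one fit of all 51 libraries (-2.42, adjusted p = 0.0572).

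IL1B was not called in either arm of PK45H. It was at 32.0, 29.7 and 24.9 CPM with mCherry and 18.0, 26.1 and 23.8 CPM with OVOL2, where the groups overlapped. In the M2rtTA arm it was at 37.8, 34.9 and 39.5 CPM with mCherry and 69.6, 48.5 and 40.5 CPM with OVOL2, where they did not. The changes were -0.42 (SE 0.20, adjusted p = 0.216, edgeR) and 0.56 (SE 0.19, adjusted p = 0.0627). The second was called by DESeq2 (0.57, adjusted p = 0.0431), with all libraries thinned to the smallest (0.63, adjusted p = 0.0384) and without OVOL2 plus M2rtTA replicate 3 (0.72, adjusted p = 0.0251). DESeq2 thus called 4 of 4 genes in that arm, where the share of all genes was worked out for edgeR only. The genes CXCL1, CXCL2, CXCL3, CXCL8 and CCL20 were not tested in PK45H. In its 15 libraries CXCL1 held 0 to 13 counts, CXCL2 0 to 11, CXCL3 0 to 5, CXCL8 0 to 5 and CCL20, the ligand of the receptor CCR6, 0 to 6. A fall or a small change in these could not be seen at this depth. Summed, CXCL1, CXCL2 and CXCL3 changed by -0.87 (SE 0.61, adjusted p = 0.423) without and by -0.12 (SE 0.51, adjusted p = 0.912) with M2rtTA.

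Other values moved with these results in PK45H. The summed level of 8 ductal epithelial markers was 2615 to 3053 CPM with mCherry and 4528 to 4866 CPM with OVOL2, and 1950 to 2121 against 4629 to 4759 CPM with M2rtTA. The 12 leukocyte markers summed to 4.11 to 5.38 CPM against 4.49 to 5.89 CPM, and with M2rtTA to 6.84 to 8.10 against 7.80 to 9.72 CPM, with MPO, ELANE and TYROBP at 0 in all 4 groups. The 4 acinar markers summed to 0 to 0.762 CPM with mCherry and 5.77 to 7.60 CPM with OVOL2, and to 0.147 to 0.937 against 4.63 to 6.00 CPM with M2rtTA, without overlap. Of these, PRSS1, which encodes trypsinogen, held 94 counts with OVOL2 and 0 with mCherry, and 69 against 2 with M2rtTA, while CPA1, CELA3A and AMY2A held at most 8 counts in any of the 4 groups. The 9 fibroblast and endothelial markers summed to 17.1 to 21.0 CPM with mCherry and 14.5 to 20.4 CPM with OVOL2, which overlapped. With M2rtTA they summed to 18.3 to 27.6 against 39.0 to 45.2 CPM, which did not, and COL1A1, a collagen chain, had a mean of 4.82 against 22.2 CPM, with PDGFRB at 0 in both OVOL2 groups. The part of these markers in the results was not tested.

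**Figure D2:**
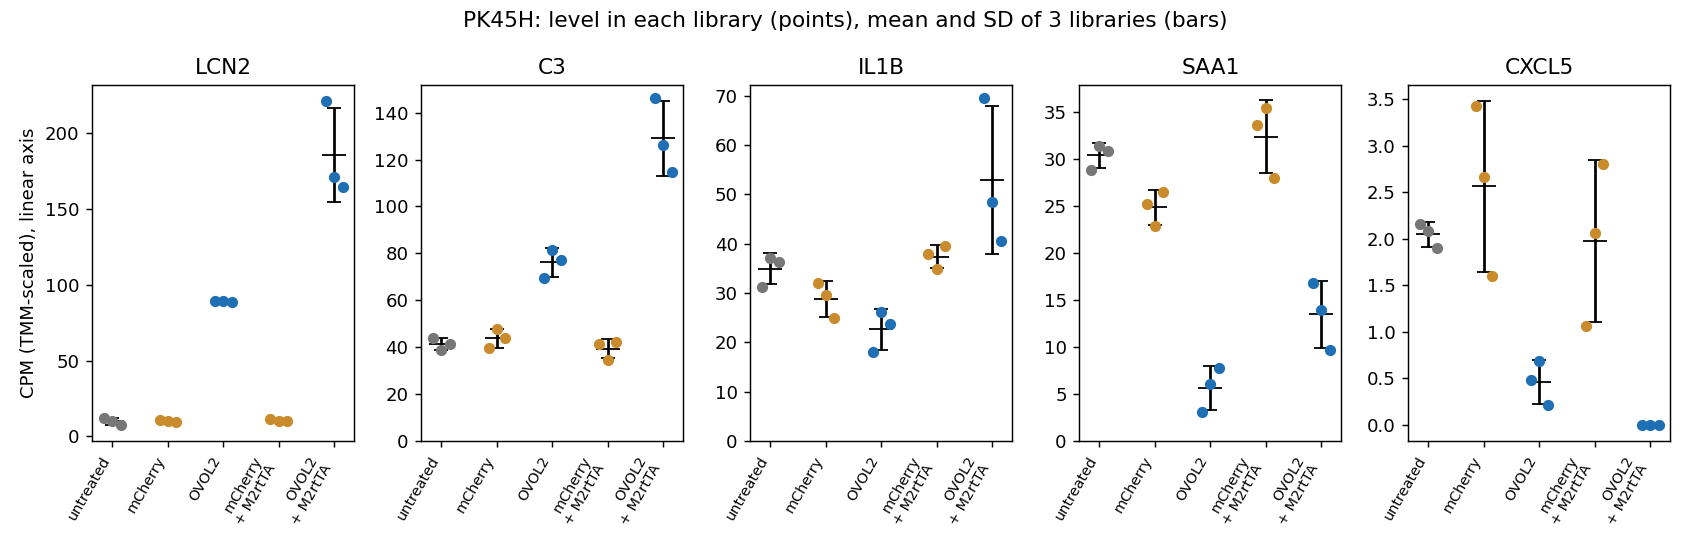
Level of LCN2, C3, IL1B, SAA1 and CXCL5 in each of the 15 PK45H libraries (points) with the mean and SD of 3 libraries (bars), in CPM on linear axes that differ between panels. LCN2 and C3 were highest with OVOL2 plus M2rtTA (means 185 and 129 CPM), while SAA1 (13.5 CPM) and CXCL5 (0 counts) were below the mCherry groups.

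Whether M2rtTA altered the OVOL2 effect was tested as the difference between the arms. In PK45H 1 of 4 genes tested was called, C3, whose change was larger with M2rtTA by 1.04 (SE 0.19, adjusted p = 0.0159, edgeR), where 1.6% of all genes were called, 0.839% higher. The call was lost without OVOL2 replicate 1 (0.98, adjusted p = 0.0519), with no filter on low counts (0.96, adjusted p = 0.0612) and in one fit of all 51 libraries (1.00, adjusted p = 0.173). The difference was 0.99 (SE 0.35, adjusted p = 0.161) for SAA1, 0.98 (SE 0.27, adjusted p = 0.0890) for IL1B and, with no test, 1.13 (SE 0.24) for LCN2. The arm difference of CXCL5, whose size cannot be given with a group at 0 counts, was not called (adjusted p = 0.170). All 4 of the 4 genes tested had an unadjusted p under 0.05, against 2391 of 13583 genes. The arm difference for IL1B was called by DESeq2 (0.99, adjusted p = 0.0400) and after thinning (1.23, adjusted p = 0.0393). In KP4 0 of 8 and in PANC1 0 of 4 genes tested were called by edgeR, and none by DESeq2. At an unadjusted p under 0.05 in edgeR there were 0 in each, against 2074 of 13662 genes in KP4 and 1407 of 13218 in PANC1. Of all genes, 1.43% were called in KP4, 0.417% higher, and 0.136% in PANC1, 0.053% higher and 0.0832% lower.

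In KP4 the chemokines CXCL1 and CXCL3 rose with OVOL2, as did C3, while SAA1 and IL1B did not pass the threshold. CXCL1 was at 3.74, 2.64 and 2.74 CPM with mCherry and 15.7, 12.7 and 9.49 CPM with OVOL2. In the M2rtTA arm it was at 1.55, 0.252 and 1.35 CPM with mCherry and 4.32, 4.17 and 1.51 CPM with OVOL2. The groups were apart without M2rtTA, and with it the lowest OVOL2 library lay within the mCherry range. CXCL1 rose by 2.03 (SE 0.37, adjusted p = 0.00499, edgeR) without and by 1.65 (SE 0.47, adjusted p = 0.0220) with M2rtTA. The second call was lost without mCherry plus M2rtTA replicate 2 (1.23, adjusted p = 0.0713), without OVOL2 plus M2rtTA replicate 1 (1.43, adjusted p = 0.0776) and without replicate 2 of that group (1.48, adjusted p = 0.0737).

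CXCL3, another CXCR2 ligand, was at 1.79, 1.83 and 2.06 CPM with mCherry and 6.64, 5.11 and 4.90 CPM with OVOL2. Its level with M2rtTA was 1.55, 1.01 and 0.385 CPM with mCherry and 2.49, 2.83 and 2.77 CPM with OVOL2. No OVOL2 library overlapped the mCherry libraries of its arm. CXCL3 rose by 1.54 (SE 0.40, adjusted p = 0.0330, edgeR) and by 1.47 (SE 0.47, adjusted p = 0.0359). These calls did not hold with fewer libraries. Without M2rtTA the call was lost in 6 of 6 fits that left out 1 library, with changes of 1.40 to 1.62 and adjusted p up to 0.117. With M2rtTA it was lost in 5 of 6, all but the fit without mCherry plus M2rtTA replicate 1, with changes of 1.06 to 1.53 among those that lost it and adjusted p up to 0.137. One fit of all 51 libraries also lost both calls (1.53, adjusted p = 0.0875, and 1.46, adjusted p = 0.0860). The call with M2rtTA was lost as well with no filter on low counts (1.47, adjusted p = 0.0622) and with only the groups compared (1.48, adjusted p = 0.0853).

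CXCL2 did not pass the threshold in KP4. Its level was 1.14, 1.01 and 2.29 CPM with mCherry and 3.24, 4.35 and 3.00 CPM with OVOL2, groups that did not overlap, with a change of 1.26 (SE 0.44, adjusted p = 0.111, edgeR). With M2rtTA the change was 0.83 (SE 0.49, adjusted p = 0.252). CXCL1, CXCL2 and CXCL3 are close copies: of their 31-base words, 13.8%, 22.4% and 9.54% are shared with the others, so single counts may be split. Their summed counts, an alternative chosen after seeing the data, rose by 1.75 (SE 0.23, adjusted p = 0.000509) from 99 counts with mCherry to 393 with OVOL2, and by 1.36 (SE 0.26, adjusted p = 0.00199) from 43 to 131 counts with M2rtTA. CCL20 was called with M2rtTA alone, at 12, 10 and 9 counts with OVOL2 against 5, 2 and 3 with mCherry (1.40, SE 0.45, adjusted p = 0.0391), and not without M2rtTA (0.78, SE 0.43, adjusted p = 0.339). The CCL20 call was lost under DESeq2 (adjusted p = 0.108), with the replicate number as a block (adjusted p = 0.0638), with robust dispersion (0.0824), with no filter (0.123), in one fit of all 51 libraries (0.211) and in 5 of 6 fits that left out 1 library, all but that without mCherry plus M2rtTA replicate 1 (up to 0.134).

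C3 was the 1 gene called higher in both KP4 and PK45H and in both arms. In KP4 it was at 7.32, 6.49 and 9.60 CPM with mCherry and 19.0, 22.9 and 17.9 CPM with OVOL2. Its level with M2rtTA was 8.61, 3.78 and 8.66 CPM with mCherry and 17.9, 18.3 and 16.1 CPM with OVOL2. The groups did not overlap in either arm. C3 rose by 1.35 (SE 0.27, adjusted p = 0.00806, edgeR) and by 1.30 (SE 0.27, adjusted p = 0.00332), and it was called in all 12 fits that left out 1 library of these groups.

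The remaining genes were not called in KP4. SAA1 held 5, 4 and 1 counts with mCherry and 17, 20 and 13 with OVOL2, groups that did not overlap, with a change of 2.10 (SE 0.78, adjusted p = 0.132, edgeR), and one fit of all 51 libraries called it (2.07, adjusted p = 0.0291). With M2rtTA the SAA1 change was 0.45 (SE 0.73, adjusted p = 0.704). The IL1B changes were 0.10 (SE 0.33) and 0.26 (SE 0.35), and those of CXCL5 0.71 (SE 0.67) and -1.03 (SE 0.90), none of them called. CXCL8, at 1 to 12 counts per library, was not tested. In all, 3 of 8 genes tested were called higher without M2rtTA and 4 of 8 with it, and 0 lower. Of 13662 genes, 6.82% were called in the first of these arms (3.26% up, 3.56% down) and 22.4% in the second (9.91% up, 12.5% down). At an unadjusted p under 0.05 there were 5 and 4 of the 8, against 2819 and 4744 of the 13662 genes, and DESeq2 called 3 in each arm. The leukocyte markers summed to 3.25 to 5.26 CPM with mCherry and 6.25 to 9.80 CPM with OVOL2, and to 3.85 to 6.05 against 7.56 to 11.8 CPM with M2rtTA. The ductal epithelial markers summed to 809 to 844 against 1108 to 1242 CPM, and to 646 to 653 against 994 to 1087 CPM. The fibroblast and endothelial markers summed to 26.7 to 31.4 against 31.2 to 36.5 CPM, which overlapped, and with M2rtTA to 29 to 35.6 against 51.9 to 57.9 CPM, which did not. In the latter arm COL1A1 had a mean of 12.6 CPM with mCherry and 39.4 CPM with OVOL2. Of the leukocyte markers ITGAM held 9 counts with mCherry and 37 with OVOL2, and 6 against 37 with M2rtTA, while MPO was at 0 in all 4 groups. The acinar markers summed to at most 0.834 CPM in these groups. The part of these markers in the result was not tested.

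**Figure D3:**
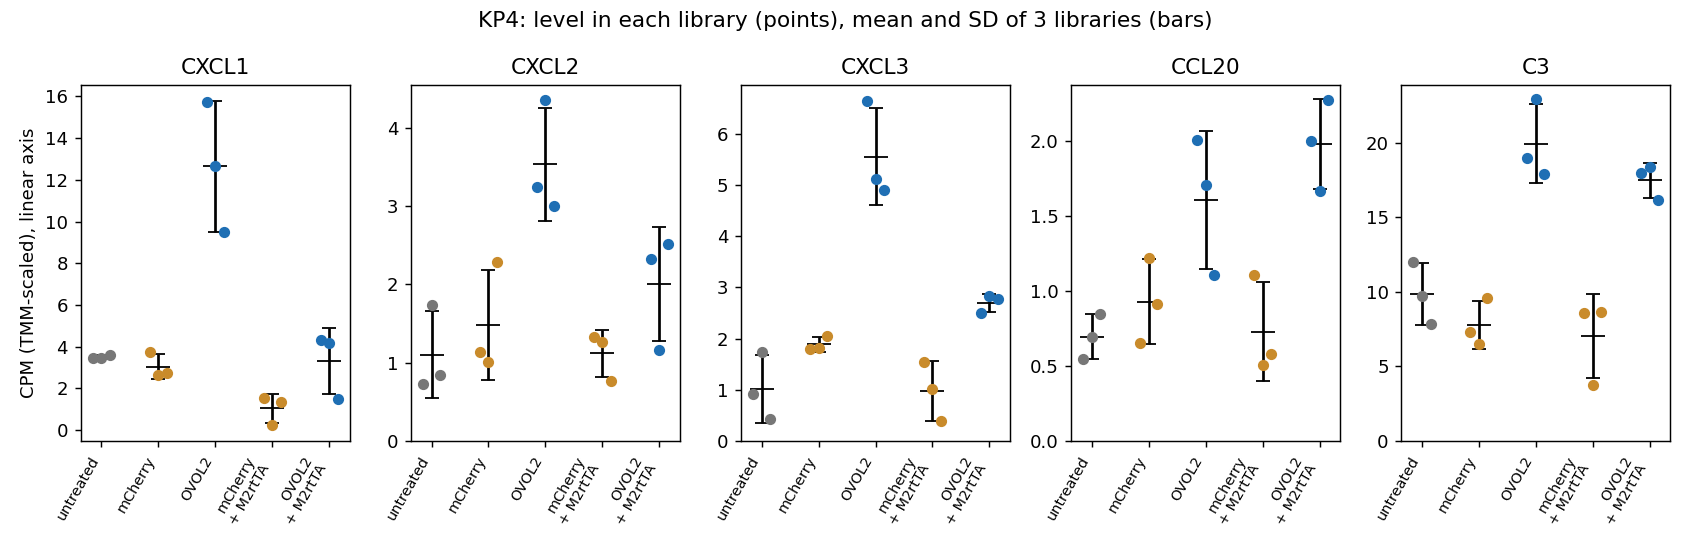
Level of CXCL1, CXCL2, CXCL3, CCL20 and C3 in each of the 15 KP4 libraries (points) with the mean and SD of 3 libraries (bars), in CPM on linear axes that differ between panels. CXCL1 (mean 12.6 CPM), CXCL3 (5.55 CPM) and C3 (19.9 CPM) stood above the mCherry group in every OVOL2 library without M2rtTA.

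PANC1 gave no call among the 4 genes tested, CXCL1, IL1B, SAA1 and C3, in either arm. By edgeR 0 of 4 passed the threshold and 0 had an unadjusted p under 0.05, and DESeq2 called 0. Of 13218 genes, edgeR called 5.08% in the arm lacking M2rtTA (2.12% up, 2.96% down) and 13.9% in the other (5.76% up, 8.18% down). At an unadjusted p under 0.05 there were 2545 and 3616 of the 13218. C3 changed by -0.07 (SE 0.45) and 0.47 (SE 0.43), CXCL1 by 0.25 (SE 0.51) and 0.83 (SE 0.53), SAA1 by 0.45 (SE 0.55) and 0.84 (SE 0.54), and IL1B by -0.86 (SE 0.44) and 0.29 (SE 0.43). The mCherry libraries were widely spread for C3, at 16.7, 5.47 and 5.12 CPM, which overlapped the OVOL2 libraries at 11.9, 8.44 and 5.35 CPM. CXCL2, CXCL3, CXCL5, CXCL8 and CCL20 were not tested, at no more than 11 counts in any PANC1 library.

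**Figure D4:**
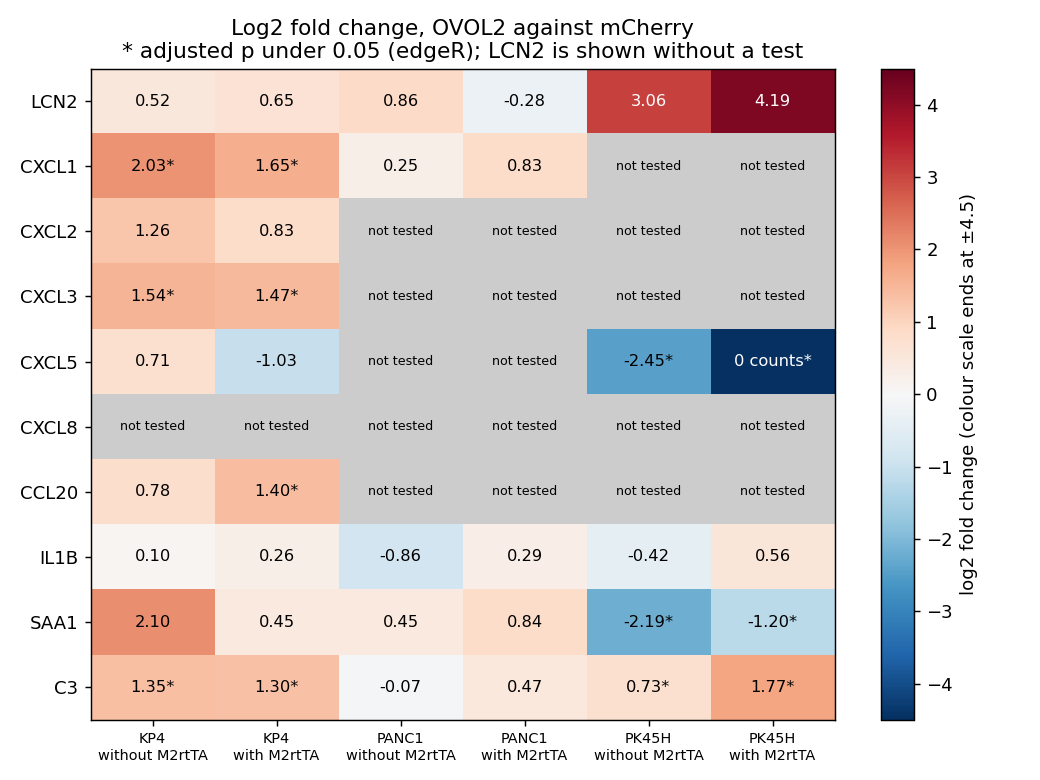
Log2 fold change of OVOL2 against mCherry for each of the 10 genes (rows) in 3 lines with and without M2rtTA (columns), with colour from lower (blue) to higher (red), and an asterisk for genes called by edgeR. LCN2 reached 3.06 and 4.19 in PK45H, C3 was called in KP4 and PK45H, CXCL1 and CXCL3 in KP4, and SAA1 and CXCL5 were lower in PK45H.

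Differences between the lines were tested in one fit of their 45 libraries. Without M2rtTA, 1 of 7 genes tested was called, SAA1 (adjusted p = 0.000662, edgeR), where 2.74% of 14943 genes were called. The SAA1 change in PK45H minus that in KP4 was -4.23 (SE 0.72, adjusted p = 0.000785, where 1.77% of all genes were called), and minus that in PANC1 it was -2.61 (SE 0.69, adjusted p = 0.0365, where 1.88% were). The comparison with PANC1 lost its call in 9 of 12 fits that left out 1 library, all but those without PANC1 mCherry replicate 1, PANC1 OVOL2 replicate 3 or PK45H OVOL2 replicate 3, with differences of -2.90 to -2.34 over all 12 and adjusted p up to 0.108. With M2rtTA, 1 of 7 was called, CXCL5 (adjusted p = 0.0136), where 7.56% of all genes were. This call was not kept under the mean count filter or after thinning, and CXCL5 was too low to be tested in PANC1 alone. PANC1 held 0, 3 and 0 counts of CXCL5 with mCherry plus M2rtTA and 4, 4 and 2 with OVOL2, against the 0 counts with OVOL2 in PK45H, and the difference between these lines was called (adjusted p = 0.00779, where 4.08% of all genes were), while that between PK45H and KP4 was not (adjusted p = 0.111). The SAA1 difference with M2rtTA was not called (adjusted p = 0.0624). Between PK45H and PANC1 with M2rtTA, DESeq2 called the differences of C3 (1.32, adjusted p = 0.0289) and SAA1 (-2.03, adjusted p = 0.0211), which edgeR did not. For C3, CXCL1, CXCL2, CXCL3 and IL1B no difference between lines passed the threshold in either arm by edgeR (adjusted p from 0.130 to 0.903), so the rises called in KP4 alone are not shown to be particular to it. Nor are the effects shown to be alike. Of the 7 genes tested, SAA1 and CXCL5 included, 5 had an unadjusted p under 0.05 without M2rtTA, against 2305 of 14943 genes. With M2rtTA there were 3 of 7, against 3213. For LCN2, with no test, the change in PK45H exceeded that in KP4 by 2.57 (SE 0.39), or by 1.98 without KP4 mCherry replicate 3, and that in PANC1 by 2.22 (SE 0.37), and with M2rtTA by 3.54 (SE 0.38) and 4.45 (SE 0.38).

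Averaged over the 3 lines, C3 rose in both arms, by 0.68 (SE 0.18, adjusted p = 0.00646, edgeR) and by 1.18 (SE 0.18, adjusted p = 2.7e-06). It was the 1 gene of 7 tested called without M2rtTA, where 18.1% of all genes were, 9.32% higher and 8.81% lower. With M2rtTA CXCL5 was called lower as well (adjusted p = 0.0421), where 32.9% of all genes were, 15.7% higher and 17.3% lower, but that call was lost in 12 of 18 fits that left out 1 library, and without PANC1 mCherry plus M2rtTA replicate 2, which holds the only 3 counts of its group, that group is at 0 and its effect could not be estimated (adjusted p = 1.00). CXCL1 changed by 0.47 (SE 0.41, adjusted p = 0.481) and 0.69 (SE 0.36, adjusted p = 0.143).

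The pathway around these genes was read in 4 lists of 146 genes. In the core list of 30 genes, which holds NF-kB subunits, their inhibitors and the proteins that switch the pathway on and off, KP4 had 5 called higher and 1 lower without M2rtTA, 20% of the list against 6.82% of all genes, with a median change of 0.50 against 1.9e-05 over all genes. NFKBIA, the inhibitor that NF-kB itself induces, rose from a mean of 30.6 to 98.9 CPM (1.68, SE 0.26, adjusted p = 0.00159, edgeR). TRAF1, an adaptor of TNF receptors and an NF-kB target, rose by 1.86 (SE 0.29, adjusted p = 0.00162), and NFKB2, a precursor subunit, by 1.05 (SE 0.17, adjusted p = 0.00246). TNIP2 and NFKBIB also rose, and BCL3, a nuclear relative of the inhibitors, fell by 0.48 (adjusted p = 0.0493). With M2rtTA 8 rose and 1 fell, 30% against 22.4% of all genes. Among those that rose were NFKBID (1.06), NFKBIA (1.22) and NFKB2 (0.77), while BCL3 fell by 0.91 (adjusted p = 0.000353). The median was 0.29 against 0.01 over all genes.

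In PK45H the core list had no call without M2rtTA and was called about as often as all genes with it. Without M2rtTA 0 of 30 passed the threshold in edgeR, where 8.39% of all genes did. At an unadjusted p under 0.05 there were 5 of the 30, against 3138 of 13583 genes, and DESeq2 called 2, both lower. The median was -0.15 against -0.0046 over all genes, and NFKBIA changed by -0.69, not called. With M2rtTA 2 rose, IKBKG (0.83, SE 0.15, adjusted p = 0.00194) and ZC3H12A, a nuclease that degrades cytokine messages (1.44, SE 0.32, adjusted p = 0.00736), and 3 fell, 16.7% of the list against 15.9% of all genes. Those that fell were OTULIN, a deubiquitinase (-0.66), and the adaptors TRAF3 (-0.72) and TRAF2 (-0.83), and the median was -0.11. NFKBIA changed by 0.28 and was not called. In PANC1 0 of 29 were called by edgeR without M2rtTA, against 5.08% of all genes, with a median of 0.31 against -0.02 over all genes. At an unadjusted p under 0.05 there were 8 of the 29, against 2545 of 13218 genes, and DESeq2 called 4, 3 of them higher. With M2rtTA ZC3H12A (0.98), NFKBID (0.85) and TNIP2 (0.75) rose and BCL3 fell by 1.20, and these 4 are 13.8% of the list against 13.9% of all genes. The median was 0.19 against 0.02 over all genes. For the mean over the 3 lines without M2rtTA, 11 of 30 were called higher and 1 lower, 40% against 18.1% of all genes. With M2rtTA 8 were higher and 3 lower, 36.7% against 32.9%. Whether the core list differs between lines was not tested.

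Other secreted targets of NF-kB moved in both directions. Of 52 listed, 28 were tested in PK45H, and with M2rtTA 7 rose and 2 fell (32.1% called, against 15.9% of all genes), with a median of 0.51. VEGFA, a growth factor of blood vessels, reached 53.8 ± 6.17 CPM (1.48, SE 0.15, adjusted p = 3.5e-05, edgeR). LTB, a membrane-bound partner of lymphotoxin, rose from 2.08 to 16.0 CPM (3.00, SE 0.33, adjusted p = 5.1e-05), and IL11, a cytokine of the IL6 family, from 3.16 to 24.8 CPM (3.03, SE 0.34, adjusted p = 5.7e-05). PTX3, a pentraxin, fell by 3.61 (SE 0.50, adjusted p = 0.000285) and EDN1, the vasoconstrictor endothelin-1, by 1.06 (adjusted p = 0.0230). Beside C3, the complement genes CFB (1.25, adjusted p = 0.0209) and C2 (1.06, adjusted p = 0.0256) were among the 7. They encode protease subunits of the convertases that cleave C3, and were singled out after their values were seen. Without M2rtTA LTB, VEGFA, CXCL16 and CFB rose and EDN1, IL18, PTX3 and PLAU fell, 28.6% against 8.39% of all genes, with a median of 0.29.

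In KP4 the secreted genes called were others in part. Without M2rtTA 3 of 27 tested rose, LIF (1.27), IL23A (4.25) and CXCL16 (0.82), and 0 fell, 11.1% against 6.82% of all genes. With M2rtTA LIF, a cytokine of the IL6 family, rose from a mean of 16.0 to 52.7 CPM (1.72, SE 0.18, adjusted p = 2.2e-05, edgeR), IL32 by 0.82 and CXCL16 by 0.54, while VEGFC fell by 0.91 and PLAU, urokinase, by 1.32. These 5 are 18.5% of the genes tested, below the 22.4% of all genes. The median of the list in KP4 was 0.44 without and 0.42 with M2rtTA. In PANC1 4 fell in each arm, CSF1, PLAU, VEGFC and CCL2. CCL2, the chemokine that attracts monocytes, went from 242 ± 29.5 to 87.6 ± 29.2 CPM with M2rtTA (-1.47, SE 0.28, adjusted p = 0.00272). LTB rose in both PANC1 arms, by 2.51 and 1.98, and IL32 with M2rtTA by 0.69. Of the 23 tested, 21.7% were thus called without M2rtTA, against 5.08% of all genes, and 26.1% with it, against 13.9%. Their median was 0.04 without and 0.0031 with M2rtTA. In PANC1 with M2rtTA the fibroblast and endothelial markers summed to 35.4 to 44.4 CPM with mCherry and 54.7 to 76.1 CPM with OVOL2, without overlap, and their part was not tested.

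Among targets kept in the cell or its membrane, HLA-B, an antigen-presenting molecule, rose with M2rtTA in PK45H by 1.25 (SE 0.13, adjusted p = 3.2e-05, edgeR) and in KP4 by 2.16 (SE 0.23, adjusted p = 2.0e-05). In PK45H with M2rtTA 4 of 28 tested rose, HLA-B, LAMB3, PLAUR and TNFAIP2, and 2 fell, CD83 and CD44, 21.4% against 15.9% of all genes. Without M2rtTA LAMB3, a laminin chain, rose by 1.93 and SQSTM1, an autophagy receptor, by 0.47, and CD44, a hyaluronan receptor, fell by 0.63, 10.7% against 8.39%. In KP4 with M2rtTA 8 of 27 rose, led by GADD45B (2.37, adjusted p = 4.7e-06), HLA-B and JUNB (1.34), and 2 fell, CD44 (-0.69) and BCL2A1 (-1.40), 37.0% against 22.4%. Without M2rtTA 7 rose, led by TAP1, a peptide transporter of antigen presentation (1.81), SQSTM1 (0.99) and KLF6 (0.76), and 0 fell, 25.9% against 6.82%. In PANC1 with M2rtTA CEBPD (2.55), TAP1 (0.58) and SOD2 (0.67) rose and CD44 (-1.28) and MUC1 (-1.69) fell, 18.5% against 13.9%. Without M2rtTA TAP1 rose by 0.85 and CD44 fell by 0.57, 7.41% against 5.08%.

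Among the receptors and partners, genes were called in both directions. In PK45H with M2rtTA 1 of 20 was higher, IL17RA (0.59), and 3 lower, TLR4, the receptor of bacterial lipopolysaccharide (-2.11, SE 0.43, adjusted p = 0.00460, edgeR), and the complement-restraining proteins CD59 (-0.61) and CD55 (-0.79), 20% against 15.9%. Without M2rtTA IL17RC rose by 1.62 and TLR4 fell by 1.56, 10% against 8.39%. In KP4 with M2rtTA 3 of 19 rose and 1 fell, 21.1% against 22.4%. CD46, another complement-restraining protein, rose from a mean of 18.4 to 44.2 CPM (1.27, SE 0.19, adjusted p = 0.000368), IL17RA rose by 0.72, and CD59 fell by 0.83. SLC22A17, reported as a receptor of lipocalin-2, was the third that rose, from 2.42 ± 1.17 to 5.65 ± 1.04 CPM (1.20, SE 0.39, adjusted p = 0.0392). Without M2rtTA CD55 alone was called in KP4 and fell by 0.62, 5.26% against 6.82%. In PANC1 with M2rtTA IL17RA rose by 0.91 and CD59 (-1.32) and TNFRSF1A (-0.51) fell, 16.7% against 13.9%, and without M2rtTA CD59 alone was called and fell by 0.43, 5.56% against 5.08%.

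**Figure D5:**
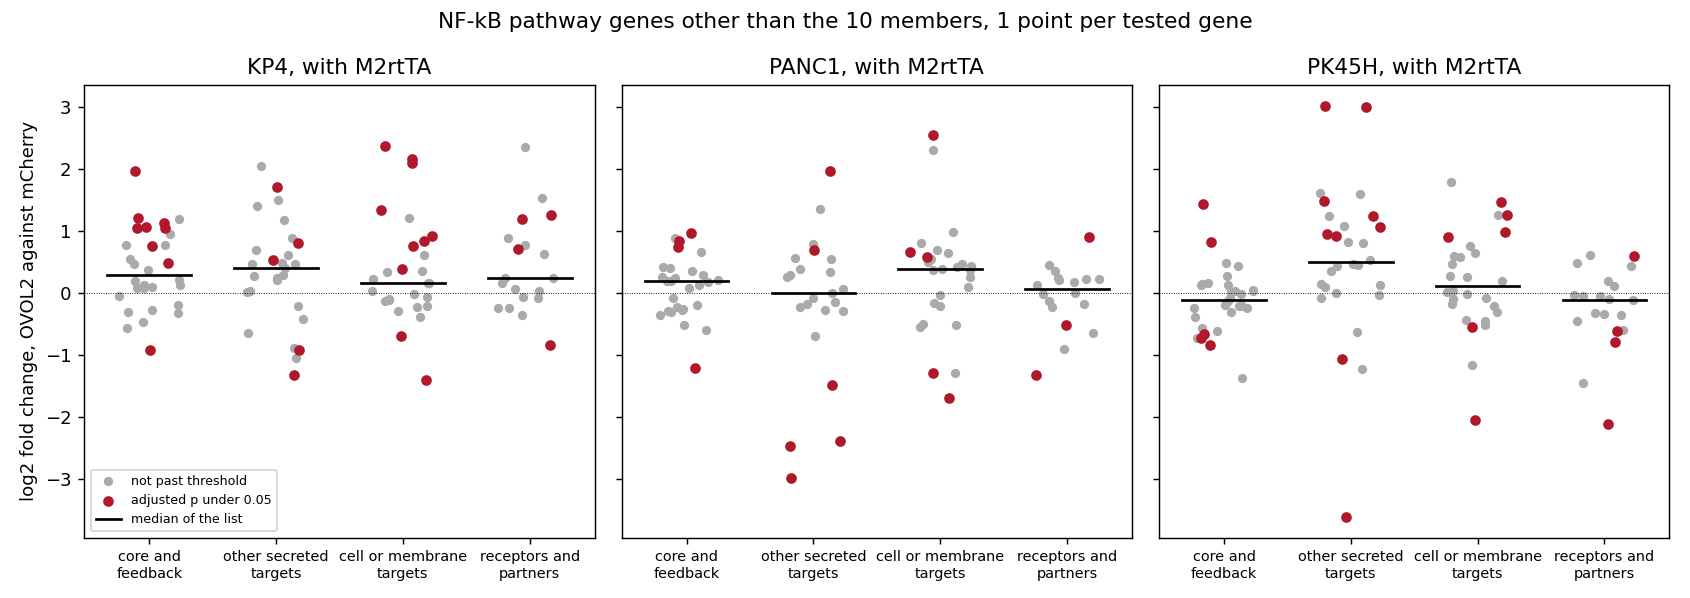
Log2 fold change of OVOL2 against mCherry with M2rtTA for each tested gene (points) of the 4 NF-kB lists in KP4, PANC1 and PK45H, with the list's median (lines) and genes called by edgeR in red. The core list had a median of 0.29 in KP4, 0.19 in PANC1 and -0.11 in PK45H. The other secreted targets had a median of 0.42 in KP4, 0.0031 in PANC1 and 0.51 in PK45H.

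Genes with a pattern like that of LCN2 were sought over all 17 groups. By Pearson's correlation over the 17 group means of log2 CPM, among 10273 genes with a mean of at least 5 CPM, the nearest were C1orf116 (r = 0.95), SYTL1 (0.93), PTK2B (0.92) and C6orf141 (0.92). C1orf116 was at 33.3 CPM in PK45H with OVOL2 plus M2rtTA, 4.11 CPM with mCherry plus M2rtTA, 30.6 CPM in HPAFII and 29.3 CPM in PATU8988S. The groups share lines and controls and LCN2 was chosen on part of them, so these are descriptions without a test. Among the 9 other genes the correlation with LCN2 was 0.68 for C3, 0.54 for IL1B, 0.41 for SAA1, -0.44 for CXCL1 and between -0.14 and 0.15 for the rest. The genes nearest to the others were HLA-B for C3 (0.97), PLAT for SAA1 (0.98) and INHBA for IL1B (0.97).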

How the data were processed

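RNA of 51 libraries from 5 cell lines was measured by PLATE-seq. The deposited table holds the authors' whole-number counts per gene, and per the submitters' processing notes kallisto 0.44.0 and GRCh38 were used, with no role given. How molecular identifiers were treated is not given in the sources used here, and totals ran from 1165399 to 7490556 counts per library. Intervals and floors from counts cover counting error only. No column was left unmatched to a sample. The labels name triplicate transductions but no animals or days, so p-values measure only the spread between these samples.

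The tests were run with edgeR 4.0.16 and limma 3.58.1 under R 4.3.3. Genes were kept by filterByExpr on the groups, scaled by TMM, and tested with the two-sided quasi-likelihood test, with Benjamini-Hochberg adjustment over all genes tested and a threshold of 0.05. Within a line the fit used its 15 libraries, between lines the 45 of KP4, PANC1 and PK45H, and between untreated lines their 15. The scripts were tested on simulated data. A group at 0 counts was bounded by 3 counts over the group. Alternatives were DESeq2 1.42.0, RLE scaling, no filter or a mean of 10 counts, the replicate number as a block, robust dispersion, thinning to the smallest library, one fit of all 51 libraries, only the groups compared, and leaving out each library. The share of all genes called was worked out for edgeR only. Summing SAA1 with SAA2, and CXCL1 with CXCL2 and CXCL3, and leaving HPAFII replicate 2 out of its mean, were chosen after seeing the data.

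The 10 genes and the lists were chosen with earlier results of these data known. From the lists, up to 3 genes called higher and 3 called lower by smallest p were named per line and arm, and all of a count of 5 or fewer. Likeness was Pearson's correlation of group means of log2 CPM (prior count 2); the 5 nearest genes were sought for LCN2, of which 1 is not reported here. Promoter windows were searched on both strands, and matches are counted once per window.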

Additional observations from a re-analysis of the deposited data

Results flagged for a closer look

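The OVOL2 effect on C3 in PK45H differed between the arms with and without M2rtTA, by a test of the difference itself (1.04 on the log2 scale, SE 0.19, adjusted p = 0.0159, edgeR). The group means were 76.1 CPM with OVOL2 and 43.8 CPM with mCherry, and 129 against 39.4 CPM with M2rtTA. The OVOL2 effect on SAA1 without M2rtTA differed between KP4, PANC1 and PK45H (adjusted p = 0.000662, edgeR), with changes of 2.10, 0.45 and -2.19, of which only the last was called within its line. The OVOL2 effect on CXCL5 with M2rtTA differed between the lines (adjusted p = 0.0136, edgeR), with 0 counts in the PK45H libraries with OVOL2 against 37 with mCherry, and 10 against 3 counts in PANC1. Those 3 counts all lay in replicate 2, and CXCL5 was too low to be tested in PANC1 alone. The call was not kept under the mean count filter or after thinning.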

How the results depend on the processing

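Of the counts of genes called with M2rtTA, that of the difference between lines (1) became 2 under DESeq2 and 0 under the mean count filter and after thinning. That of the mean over lines (2) became 1 under the mean count filter, with no filter and after thinning. That of KP4 (4) became 2 with no filter and in one fit of all 51 libraries, and 1 with only the groups compared. The count in PK45H without M2rtTA (3) became 1 in one fit of all 51 libraries. That of the PK45H arm difference (1) became 2 under DESeq2 and after thinning, and 0 with no filter and in one fit of all 51 libraries. That of the untreated lines (9) became 5 under the mean count filter and 4 after thinning, which test fewer genes at low counts. The causes of the others were not tested.

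Signs turned for the mean change of CXCL1 with M2rtTA after thinning (-0.0023), for the KP4 arm difference of C3 after thinning (0.088), and, with SAA1 and SAA2 summed, for SAA1 in KP4 with M2rtTA (-0.042) and in PANC1 without it (-0.19), none of them called. Leaving out each library in turn, the counts ran from 1 to 2 for the line difference with M2rtTA, from 1 to 2 for the mean with M2rtTA, from 1 to 4 for KP4 with M2rtTA and from 0 to 1 for the PK45H arm difference. The changes that turned sign in such fits were not called: SAA1 with M2rtTA over the lines from -0.18 to 0.16 and in KP4 from -0.19 to 0.90, IL1B in KP4 without M2rtTA from -0.15 to 0.27, and in PANC1 with it from -0.071 to 0.56. In PANC1 without M2rtTA, C3 ran from -0.38 to 0.69 and CXCL1 from -0.10 to 0.99. The arm difference ran in KP4 from -0.48 to 0.40 for LCN2, with no test, from -0.34 to 0.14 for C3, from -0.48 to 0.45 for CXCL3 and from -0.10 to 0.43 for IL1B, and in PANC1 from -0.21 to 0.84 for C3 and from -0.15 to 0.98 for CXCL1.

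With the replicate number as a block, CCL20 in KP4 with M2rtTA lost its call (adjusted p = 0.0638), which left 3 genes called there, and no other call among the 10 genes in the OVOL2 contrasts changed. OVOL2 and mCherry samples of the same line and arm that share a number deviated together (correlation over 0.1) in 1 of 18 pairs, with correlations from -0.217 to 0.206. No strong pairing by number was thus seen, but a weak one, or one between other groups, could not be told from these pairs. Genes at a few counts per library, the chemokines in PK45H and PANC1 above all, are limited by depth.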
